A study of Mus musculus with 6 samples.

Results

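Mitochondrial protein import was examined through 34 genes, of 21959 in the deposited table, whose symbols begin with Timm, Tomm or Chchd followed by a digit. They encode the translocases of the outer and inner mitochondrial membranes (Tomm and Timm), the small Tim chaperones between the membranes, and proteins with coiled-coil-helix-coiled-coil-helix domains (Chchd). The rule that picks them reads the symbols and no expression value. Libraries came from the whole thickness of the back skin of C57BL/6 males aged 7 weeks. The labels and methods name no engineered allele, and the mice were shaved in telogen, the resting phase of the hair follicle. Vehicle (30% dipropylene glycol in water) was applied daily for 7 days to 3 mice, and 3% rebamipide, a mucosal protective drug given for gastric ulcer, was applied in the same way to 3 other mice. The study asked which genes respond to rebamipide in skin at a time before hair regrowth.

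Most mitochondrial proteins are made in the cytosol. They enter through the TOM complex of the outer membrane and are then handed to TIM23, which serves proteins with a cleavable presequence, or to TIM22, which inserts carrier proteins into the inner membrane, with the small Tim chaperones escorting hydrophobic proteins across the space between them. Several CHCHD proteins are themselves imported and folded by disulfide bonds in that space, where some shape the cristae, the folds of the inner membrane that hold the respiratory chain. Brown adipocytes and oxidative muscle are rich in mitochondria.

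The 3 vehicle libraries held 38676018 to 39915276 counts and the 3 rebamipide libraries 32709801 to 34706852. The share of counts on genes of the mitochondrial genome was 2.59% to 5.36% with vehicle and 13.28% to 21.96% with rebamipide. Libraries were scaled with TMM factors, and CPM values below are counts scaled by the resulting library sizes. Marker RNA of several cell types differed between the groups. The summed level of 8 brown adipocyte markers was 213 to 373 CPM with vehicle and 4850 to 12700 CPM with rebamipide, with 5 of the 8 higher. Ucp1, the uncoupling protein that defines brown adipocytes, was at 0 counts in every vehicle library. Elovl3 was not called and lay below every vehicle library (129 to 238 CPM) in every rebamipide library (33.3 to 83.1 CPM), and Zic1, also not called, overlapped (7.03 to 19.1 and 10.7 to 15.9 CPM). Of 10 general adipocyte markers 8 were higher (1710 to 5030 and 13100 to 23400 CPM), and of 6 endothelial markers 3 were higher (209 to 497 and 1010 to 1460 CPM). Of 6 slow muscle markers 4 were higher (2.07 to 13.5 and 7.02 to 290 CPM) and of 8 fast muscle markers none (5070 to 25100 and 259 to 32300 CPM), and the sums of both lists overlapped between the groups. Basal keratinocyte markers (2210 to 3830 and 143 to 1130 CPM over 6 genes), suprabasal keratinocyte markers (575 to 4260 and 2.37 to 1090 CPM over 5 genes) and fibroblast markers (12000 to 17700 and 1850 to 15100 CPM over 6 genes) included no called gene. The third rebamipide library stood apart, with Krt14, Krt15, Ivl and Flg, which mark the epidermis of the labelled tissue, at 0 counts. In bulk tissue, more cells of a type and more RNA per cell cannot be told apart, and the part of these cell types in the results below was not tested.

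Of the 34 genes, 31 passed the filter on low counts, and 21 of these 31 (67.7%) were higher with rebamipide at an adjusted p under 0.05, with 0 lower. Adjusted p-values throughout are from edgeR's quasi-likelihood test with Benjamini-Hochberg adjustment over all 14875 genes tested, of which 14.1% were higher and 6.51% lower. In 26 of the 31 genes every rebamipide library lay above every vehicle library, and in 5 (Chchd7, Tomm34, Chchd2l, Tomm70a and Timm8a1) the groups overlapped. Over all genes tested, 24.5% had every rebamipide library above every vehicle library and 24.0% had every one below. The log2 fold changes of the 31 genes ran from 0.05 to 3.34 with a median of 1.09, beside a median of -0.17 over all genes. With scaling by total counts alone these medians were 0.46 and -0.78, and 14 of the 31 genes were called, without Chchd1, Timm21, Timm22, Timm29, Timm8b, Tomm40 and Tomm7. The first rebamipide library was the lowest of its group for all 21 called genes. Its marker sums were the lowest of its group for brown adipocytes, adipocytes and endothelial cells and the highest for fast and slow muscle, keratinocytes and fibroblasts. When the second vehicle library or the second rebamipide library was left out, edgeR called 0 of the 31 genes (22 at an unadjusted p under 0.05 in each case), while DESeq2 called 22 and 20 and limma-voom 0 and 0. In those fits edgeR called 0 of 14964 and 1 of 15335 genes in the whole table and limma-voom called 210 and 256 genes higher. Over all edgeR fits with a library left out the log2 fold change of Timm10 was 2.05 to 2.43 and that of Timm44 1.79 to 2.16. Without the third rebamipide library, edgeR called 12 and DESeq2 19. Over 28 alternative analyses each of the 21 calls was lost in 4 to 13. Of the 3 genes that did not pass the filter, Tomm6 had 0 to 1 counts, Timm8a2 had 0 to 4, and Tomm20l had 0 counts in every library, which allows up to 0.0752 to 0.0917 CPM per library before TMM scaling.

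**Figure D1:**
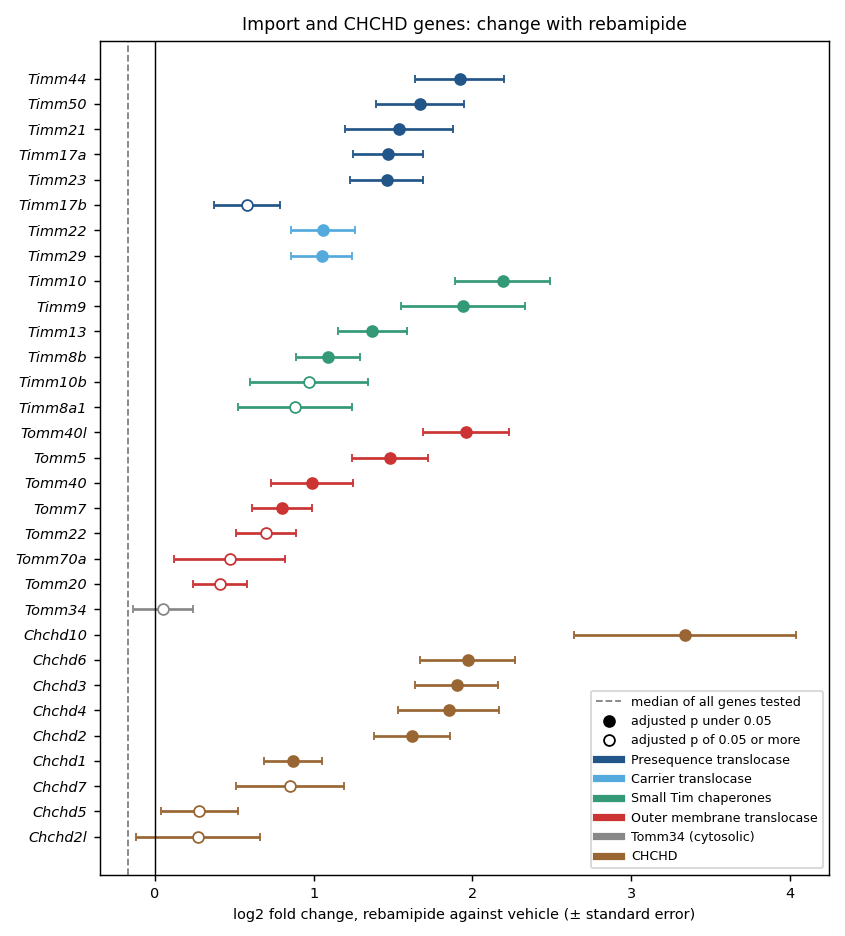
Log2 fold change of each of the 31 genes tested (rebamipide against vehicle, 3 libraries per group, horizontal axis), with bars of 1 standard error and the dashed line at the median of all genes tested (-0.17). Filled points are the 21 genes with an adjusted p under 0.05 (edgeR), Chchd10 lies farthest right at 3.34, and Tomm34 lies nearest to 0.

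Compared per length, in FPKM, Chchd2 had the highest level of the group in every library, at 90.9, 95.4 and 106 FPKM with vehicle and 180, 189 and 211 FPKM with rebamipide. Timm8b was second in 5 of the 6 libraries, and Chchd3 was second in the third rebamipide library. The number of the 34 genes above 10 FPKM was 18, 15 and 16 in the vehicle libraries and 19, 23 and 23 in the rebamipide libraries.

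Promoters were read beside the expression values, since many of these genes differed in the same direction. RefSeq windows from 250 bases before to 50 bases after the start site (GRCm38.p6) were matched by symbol for 28 of the 34 genes. They were searched on both strands for TNAAGGTCA (the extended half-site of oestrogen-related receptors), GCGCATGCG (the core of the NRF-1 site) and CCGGAAGT (the core of ETS sites such as those of GABPA), factors known from nuclear genes of mitochondrial proteins. No window of a member held more than 1 of the 3 motifs. Below, 200 bases before the start site are shown in the direction of the gene for 5 genes that span the range from the highest fold change to none called. Matches are in capitals and their positions count back from the start site.

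The presequence translocase of the inner membrane was higher in 5 of its 6 genes. Timm23 (ENSMUSG00000013701, chromosome 14, 31902119 to 31923855 in the deposited table, whose build the processing notes give as GRCm39), which forms the channel core together with the Timm17 proteins, was at 71.0, 75.0 and 92.4 CPM in the vehicle libraries and 174, 240 and 243 CPM in the rebamipide libraries. The groups did not overlap, and the fitted fold was 2.76 (log2 fold change 1.46, SE 0.23, adjusted p = 0.0125). Its promoter held the ETS core at position -48, on the opposite strand, as shown here with chr14:32201892-32202091 of GRCm38.p6, minus strand.
Timm23: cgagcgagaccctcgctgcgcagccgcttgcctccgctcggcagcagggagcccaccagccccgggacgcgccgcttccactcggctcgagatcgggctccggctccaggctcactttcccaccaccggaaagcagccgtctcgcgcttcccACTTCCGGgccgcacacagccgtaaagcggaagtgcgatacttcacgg

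Timm44 (ENSMUSG00000002949), which holds the matrix Hsp70 motor at the channel, had the largest fold of the inner membrane genes. It was at 40.3, 37.2 and 35.2 CPM with vehicle and 91.3, 166 and 168 CPM with rebamipide. The first rebamipide library stood below the other two but above every vehicle library (log2 fold change 1.92, SE 0.28, adjusted p = 0.0113). Timm50, the receptor that takes presequences from the outer membrane, was at 36.2, 25.6 and 24.6 CPM with vehicle and 66.3, 94.8 and 113 CPM with rebamipide. That difference was 1.67 on the log2 scale (SE 0.28, adjusted p = 0.0142). Timm21, which contacts the outer membrane translocase, rose by 1.54 (SE 0.34, adjusted p = 0.028), from 17.3 to 17.9 CPM with vehicle to 28.5, 57.5 and 66.9 CPM with rebamipide, so the rebamipide libraries spread much wider than the vehicle libraries. Its call was lost in 12 of the 28 alternative analyses.

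The Timm17 proteins occur as alternative forms, encoded by Timm17a and Timm17b. Timm17a was at 54.5, 57.4 and 65.2 CPM with vehicle and 124, 184 and 183 CPM with rebamipide (log2 fold change 1.47, SE 0.22, adjusted p = 0.0121). Timm17b was at 16.2, 14.5 and 17.2 CPM with vehicle and 20.4, 26.9 and 24.5 CPM with rebamipide, which did not overlap but did not pass the test (log2 fold change 0.58, SE 0.21, adjusted p = 0.0943). Its sign turned with total counts alone (-0.05) and with limma on log2(FPKM + 1) (-0.04). The FPKM are themselves scaled by the library total. Per length, Timm17b made up 47.9%, 43.8% and 44.9% of the summed FPKM of the pair with vehicle and 33.6%, 31.1% and 29.2% with rebamipide. A ratio of 2 genes within a library does not depend on how libraries are scaled.

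Both genes of the carrier translocase were higher. Timm22, its channel, was at 26.5, 22.6 and 22.8 CPM with vehicle and 42.0, 58.5 and 49.9 CPM with rebamipide (log2 fold change 1.06, SE 0.20, adjusted p = 0.0193). Timm29, a subunit of the same complex, was at 57.1, 54.8 and 62.7 CPM with vehicle and 97.1, 134 and 130 CPM with rebamipide (1.05 on the log2 scale, SE 0.19, adjusted p = 0.0181). In neither gene did the groups overlap. The Timm29 gene overlaps Yipf2 on the other strand (180 to 275 counts, against 2697 to 3445 for Timm29), and whether the counting used strand is not given in the sources used here.

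Of the 7 small Tim genes, 6 were tested and 4 were higher. Timm10 (ENSMUSG00000027076, chromosome 2, 84657341 to 84660557), which assembles with Timm9 into the chaperone for carrier proteins, had the largest fold of the small Tims. It was at 11.0, 9.28 and 10.5 CPM with vehicle and 29.8, 54.7 and 55.5 CPM with rebamipide. The groups were far apart relative to their spread (fold 4.55, log2 fold change 2.19, SE 0.30, adjusted p = 0.0103). Its partner Timm9 was at 11.5, 8.73 and 10.5 CPM with vehicle and 20.5, 52.8 and 44.5 CPM with rebamipide (log2 fold change 1.94, SE 0.39, adjusted p = 0.0222). The first rebamipide library lay nearest to the vehicle libraries in both partners, and the call of Timm9 was lost in 9 of the 28 alternative analyses.

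Timm8b and Timm13 encode subunits of the other small Tim chaperone. Timm8b was at 29.7, 29.8 and 38.7 CPM with vehicle and 59.8, 74.8 and 74.3 CPM with rebamipide (log2 fold change 1.09, SE 0.20, adjusted p = 0.0178). Timm13 was at 31.3, 25.0 and 26.6 CPM with vehicle and 56.7, 72.1 and 85.2 CPM with rebamipide (log2 fold change 1.37, SE 0.22, adjusted p = 0.0131). Neither gene overlapped between the groups. Timm8b was the member with the oestrogen-related receptor half-site, at position -96, and Timm13 the member with the NRF-1 core, at -193 on the opposite strand, so both are shown (chr9:50603701-50603900, plus strand, and chr10:80900970-80901169, minus strand, GRCm38.p6).
Timm8b: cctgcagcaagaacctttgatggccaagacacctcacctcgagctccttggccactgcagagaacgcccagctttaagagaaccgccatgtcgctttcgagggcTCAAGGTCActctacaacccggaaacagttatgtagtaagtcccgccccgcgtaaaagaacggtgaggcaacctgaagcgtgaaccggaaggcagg
Timm13: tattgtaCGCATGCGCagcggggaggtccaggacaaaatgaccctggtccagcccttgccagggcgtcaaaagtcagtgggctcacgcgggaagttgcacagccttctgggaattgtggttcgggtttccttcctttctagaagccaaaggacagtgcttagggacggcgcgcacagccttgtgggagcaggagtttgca

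The other small Tims were not called. Timm10b, a paralogue of Timm10 found at the carrier translocase, was at 2.70, 3.01 and 2.03 CPM with vehicle and 3.69, 4.72 and 6.75 CPM with rebamipide (log2 fold change 0.97, SE 0.37, adjusted p = 0.104). Timm8a1 was at 19.0, 10.3 and 12.5 CPM with vehicle and 16.4, 31.8 and 28.6 CPM with rebamipide (0.88 on the log2 scale, SE 0.36, adjusted p = 0.125). Here the first library of each group crossed, and the groups overlapped.

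Among the 9 outer membrane translocase genes, 7 were tested and 4 were higher. Tomm40 (ENSMUSG00000002984, chromosome 7, 19435238 to 19449363), the pore through which nearly all imported proteins pass, was at 42.7, 29.9 and 26.6 CPM with vehicle and 52.9, 67.6 and 76.1 CPM with rebamipide. The groups were separate, with a fold of 1.98 (log2 fold change 0.99, SE 0.26, adjusted p = 0.0426). Tomm40l (ENSMUSG00000005674, chromosome 1, 171043580 to 171050083), a paralogue of the pore, was at 9.76, 9.48 and 10.2 CPM with vehicle and 26.4, 43.1 and 45.0 CPM with rebamipide. The vehicle libraries differed little among themselves and the log2 fold change was 1.96 (SE 0.27, adjusted p = 0.0103).

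Of the small subunits around the pore, Tomm5 was at 32.6, 34.8 and 35.5 CPM with vehicle and 67.4, 111 and 108 CPM with rebamipide (log2 fold change 1.48, SE 0.24, adjusted p = 0.0134). Tomm7 was at 40.6, 41.8 and 45.4 CPM with vehicle and 64.0, 69.1 and 89.1 CPM with rebamipide (log2 fold change 0.80, SE 0.19, adjusted p = 0.0346). Both sets of libraries were separate, but the calls of Tomm7 and Tomm40 were each lost in 13 of the 28 alternative analyses. Tomm6, the remaining small subunit, had 0 to 1 counts, and its gene overlaps Gm21981 on the same strand (0 to 10 counts), so its level cannot be read from this table.

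The receptors of the outer membrane were not called in the edgeR fit reported here, with TMM factors and all libraries kept. Tomm22, the central receptor, was closest to the threshold, at 83.6, 72.2 and 71.4 CPM with vehicle and 101, 138 and 131 CPM with rebamipide (log2 fold change 0.70, SE 0.19, adjusted p = 0.0507). Tomm22 was called higher by DESeq2 (adjusted p = 0.0331), by limma-voom (adjusted p = 0.0494), with upper quartile factors (adjusted p = 0.045) and with at least 10 counts in every sample (adjusted p = 0.0466), and its adjusted p ranged from 9.26e-07 to 0.751 over all alternatives, the highest being that of total counts alone. Tomm20 (ENSMUSG00000093904), the presequence receptor, was at 95.1, 80.1 and 99.9 CPM with vehicle and 114, 130 and 123 CPM with rebamipide, without overlap, and its log2 fold change of 0.41 (SE 0.17, adjusted p = 0.131) turned negative with total counts alone (-0.21) and with limma on log2(FPKM + 1) (-0.19). Tomm70a, the receptor for carrier proteins, was at 98.7, 81.6 and 75.2 CPM with vehicle and 64.0, 159 and 130 CPM with rebamipide. Its first rebamipide library was the lowest of all 6, the groups overlapped, and its log2 fold change of 0.47 (SE 0.35, adjusted p = 0.349) became -0.20 with total counts alone and -0.22 with limma on log2(FPKM + 1). With each library left out in turn, edgeR gave Tomm70a log2 fold changes of 0.19 to 0.77 and adjusted p-values of 0.0411 to 0.75. Tomm34, a cytosolic cochaperone that shares the name but is no membrane subunit, was at 22.4, 20.1 and 20.6 CPM with vehicle and 24.1, 21.4 and 19.8 CPM with rebamipide, and its log2 fold change of 0.05 (SE 0.19, adjusted p = 0.868) became -0.56 with total counts alone.

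**Figure D2:**
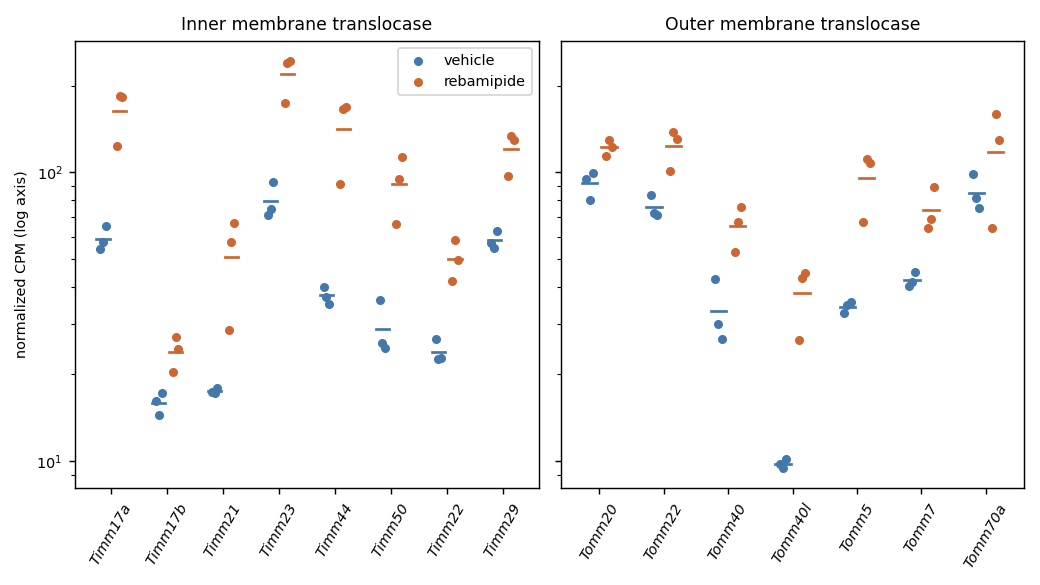
Normalized CPM (log axis) of the 8 inner membrane (left) and the 7 tested outer membrane (right) translocase genes, with a point for each of the 3 libraries of a group and a line at the group mean. Every inner membrane gene is separate between vehicle and rebamipide, while Tomm70a overlaps on the right.

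Set against each other, 7 of 8 inner membrane translocase genes were higher with a median log2 fold change of 1.47, and 4 of 7 outer membrane translocase genes with a median of 0.80. With total counts alone 4 and 2 were called and the medians were 0.83 and 0.17. Both medians were above that of all genes (-0.17). The summed CPM of the 8 inner membrane genes was 0.792, 0.87 and 0.928 times that of the 7 outer membrane genes in the vehicle libraries and 1.32, 1.34 and 1.39 times in the rebamipide libraries. The ratio was therefore below 1 in every vehicle library and above 1 in every rebamipide library, whatever the scaling between libraries. The median log2 CPM of the inner genes minus that of the outer genes was -0.16, -0.44 and -0.63 with vehicle and 0.28, 0.03 and 0.17 with rebamipide. The difference between the medians of the log2 fold changes was 0.67, and between the means 0.37. The groups were not separate in their log2 fold changes: Tomm5, Tomm7, Tomm22 and Tomm40 lay within the range of the inner membrane genes (0.58 to 1.92), Tomm40l just above it, and only Tomm20 and Tomm70a below it. Genes of a complex are not replicates of a condition, so this difference was given no test.

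**Figure D3:**
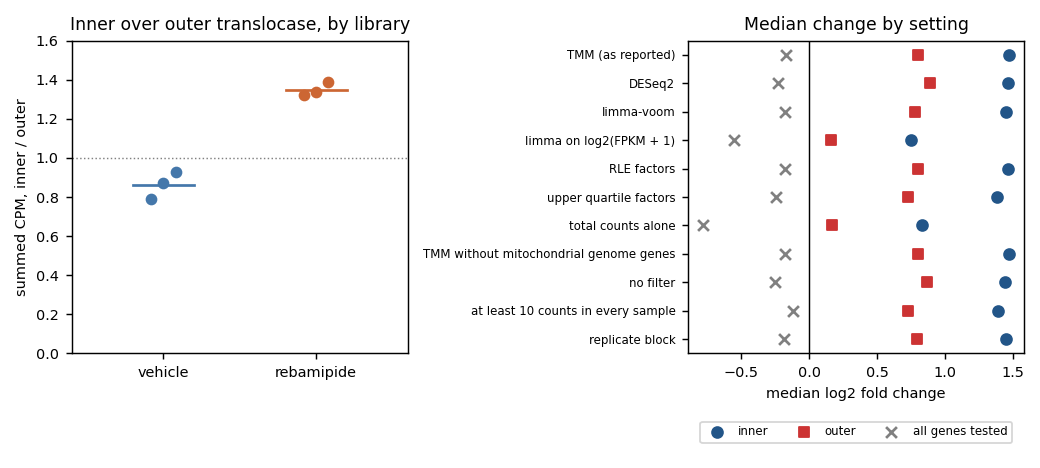
Left, the summed CPM of the inner divided by the summed CPM of the outer membrane translocase genes in each library, with lines at the group means; the vehicle libraries lie at 0.792 to 0.928 and the rebamipide libraries at 1.32 to 1.39. Right, the median log2 fold change of the inner genes, the outer genes and all genes tested under each analysis setting with all libraries; the inner median lies to the right of the outer median in each.

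Other mitochondrial genes were counted in the same way. Among genes annotated in the table to the mitochondrial inner membrane, with the 34 genes left out, 297 of 444 tested were higher and 4 lower, with a median log2 fold change of 1.41. For the outer membrane 42 of 158 were higher and 5 lower, with a median of 0.33, and for the mitochondrion as a whole 711 of 1627 were higher and 42 lower, with a median of 0.83. With total counts alone the medians became 0.78 for the inner membrane, -0.28 for the outer membrane and 0.21 for the mitochondrion, beside -0.78 over all genes. With TMM factors, 7 of the 8 inner membrane translocase genes were above the whole-mitochondrion median of 0.83. So were 6 of 6 small Tims, 7 of 9 Chchd genes and 3 of 7 outer membrane translocase genes. Against the annotated genes of their own membrane, 5 of 8 inner membrane translocase genes were above the inner membrane median and 7 of 7 outer membrane translocase genes were above the outer membrane median, and 2 of 6 small Tims were above the inner membrane median. The sorting and assembly machinery of the outer membrane, described below, had a median of 1.63 over 4 genes, of which 2 were called. That of the inner membrane translocase was 1.47. The porins of the outer membrane had a median of 0.60, which became 0.01 with total counts alone. Of the porins, Vdac2 rose (138, 148 and 162 CPM with vehicle, 293, 403 and 388 CPM with rebamipide, adjusted p = 0.0153). Vdac3 had a log2 fold change of 0.60 (adjusted p = 0.166), which became 0.01 with total counts alone. Vdac1, with one of 0.46 (adjusted p = 0.345), turned negative with total counts alone (-0.12).

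Of the 9 Chchd genes 6 were higher. Chchd10 (ENSMUSG00000049422, chromosome 10, 75768964 to 75773581), a protein of the cristae that is abundant in oxidative tissues, had the largest fold of all 31 genes. It was at 2.40, 7.39 and 17 CPM with vehicle (120, 364 and 795 counts) and 74.6, 92.9 and 103 CPM with rebamipide (2264, 2383 and 2704 counts). The vehicle libraries were widely spread and the rebamipide libraries close together, and the log2 fold change of 3.34 had the largest standard error of the group (0.70, adjusted p = 0.0254). With each library left out in turn it ranged from 2.85 (without the first vehicle library) to 4.20 (without the third). The gene overlaps Mmp11 (101 to 487 counts) and Gm867 (0 to 5 counts) on the other strand. Its promoter is shown because it held none of the 3 motifs (chr10:75932930-75933129, plus strand, GRCm38.p6).
Chchd10: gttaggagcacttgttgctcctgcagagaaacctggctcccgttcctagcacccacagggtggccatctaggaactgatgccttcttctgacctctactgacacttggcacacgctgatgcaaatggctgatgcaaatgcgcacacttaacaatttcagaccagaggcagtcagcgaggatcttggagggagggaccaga

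Its paralogue Chchd2 (ENSMUSG00000070493), which acts on the respiratory chain and in the nucleus, was at 161, 175 and 199 CPM with vehicle and 440, 575 and 633 CPM with rebamipide (log2 fold change 1.62, SE 0.24, adjusted p = 0.0114). The groups were separate. The gene overlaps the muscle kinase gene Phkg1 on the same strand, whose counts (904, 2497 and 4280 with vehicle, 2983, 663 and 151 with rebamipide) were highest in the third vehicle library and lowest in the third rebamipide library, where Chchd2 was highest. Chchd2l, a neighbouring gene with a Chchd2-like symbol, was at 3.77, 2.82 and 1.80 CPM with vehicle and 2.77, 3.51 and 3.85 CPM with rebamipide, with overlap, and its log2 fold change of 0.27 (SE 0.39, adjusted p = 0.625) became -0.37 with total counts alone.

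Chchd3 and Chchd6 encode subunits of MICOS, the complex that holds the necks of the cristae. Chchd3 was at 83.9, 103 and 120 CPM with vehicle and 293, 406 and 445 CPM with rebamipide (log2 fold change 1.90, SE 0.26, adjusted p = 0.0104). Chchd6 was at 9.43, 7.19 and 8.68 CPM with vehicle and 22.2, 35.6 and 41.4 CPM with rebamipide (log2 fold change 1.97, SE 0.30, adjusted p = 0.0121). Both were separate between the groups by a wide margin. Chchd4, the oxidoreductase that traps and folds imported proteins by forming their disulfide bonds, was at 19.0, 14.3 and 17.9 CPM with vehicle and 37.3, 71.8 and 74.9 CPM with rebamipide (log2 fold change 1.85, SE 0.32, adjusted p = 0.0155).

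Chchd1, a subunit of the mitochondrial ribosome, was at 24.1, 28.7 and 31.8 CPM with vehicle and 47.9, 54.3 and 52.1 CPM with rebamipide (log2 fold change 0.87, SE 0.18, adjusted p = 0.0258). Chchd7, another small protein of the intermembrane space, was at 14.2, 9.30 and 9.17 CPM with vehicle and 13.2, 20.4 and 25.3 CPM with rebamipide, with overlap (0.85 on the log2 scale, SE 0.34, adjusted p = 0.114). Chchd5, of the same kind, was at 7.33, 8.06 and 6.69 CPM with vehicle and 10.1, 8.15 and 8.51 CPM with rebamipide. The log2 fold change of Chchd5, 0.28 (SE 0.24, adjusted p = 0.422), became -0.33 with total counts alone and -0.28 with limma on log2(FPKM + 1). Its promoter is shown because it held the ETS core at -98 and again at -66 although the gene was not called (chr2:129129500-129129699, plus strand, GRCm38.p6).
Chchd5: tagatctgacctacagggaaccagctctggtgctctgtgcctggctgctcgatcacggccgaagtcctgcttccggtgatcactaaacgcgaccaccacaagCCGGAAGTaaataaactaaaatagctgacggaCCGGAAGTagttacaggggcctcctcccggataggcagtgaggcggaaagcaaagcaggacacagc

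Over the 25 tested genes with a promoter window, the ETS core was found in 6 (24.0%), namely Chchd5, Timm10, Timm10b, Timm23, Timm29 and Tomm70a, and in 7.94% of the 11673 tested genes with a window. Of those 6 genes, Timm10, Timm23 and Timm29 were higher, and Chchd5, Timm10b and Tomm70a were not called. The oestrogen-related receptor half-site was found in 1 of the 25 (Timm8b) and in 0.951% of the tested genes, and the NRF-1 core in 1 of the 25 (Timm13) and in 3.6%. These are matches of letters within a window and say nothing of whether a factor binds there.

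Related genes were compared by their ratio within each library, for 6 of 8 listed pairs, those in which both genes passed the filter on low counts. With 3 libraries against 3, the exact two-sided permutation test cannot give a p below 0.1, so no pair could pass 0.05. The log2 ratio of the counts of Timm17b to Timm17a went from -1.74, -1.99 and -1.92 with vehicle to -2.61, -2.77 and -2.90 with rebamipide, a difference of -0.88 ± 0.11 (SE, exact permutation p = 0.1). The ratio of Timm10b to Timm10 differed by -1.19 ± 0.27 (exact permutation p = 0.1), with every rebamipide library below every vehicle library in both pairs.

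The next pairs differed in the other direction. For Tomm40l to Tomm40 the difference was 0.92 ± 0.24 (SE, exact permutation p = 0.1), and per length Tomm40l went from 16.7%, 21.8% and 25.2% of the summed FPKM of the pair with vehicle to 30.5%, 35.9% and 34.2% with rebamipide. For the pair Chchd10/Chchd2 the difference was 2.12 ± 0.73 (exact permutation p = 0.1), with 1.45 when the first vehicle library was left out and 2.71 when the third was, and Chchd10 made up 2.1%, 5.72% and 11.0% of the summed FPKM with vehicle and 19.6%, 18.9% and 19.0% with rebamipide. The rebamipide libraries were close together and the vehicle libraries were not. The ratios of Timm8b to Timm8a1 (difference 0.22 ± 0.37, exact permutation p = 0.7) and of the MICOS genes Chchd6 to Chchd3 (0.04 ± 0.24, exact permutation p = 0.8) overlapped between the groups.

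**Figure D4:**
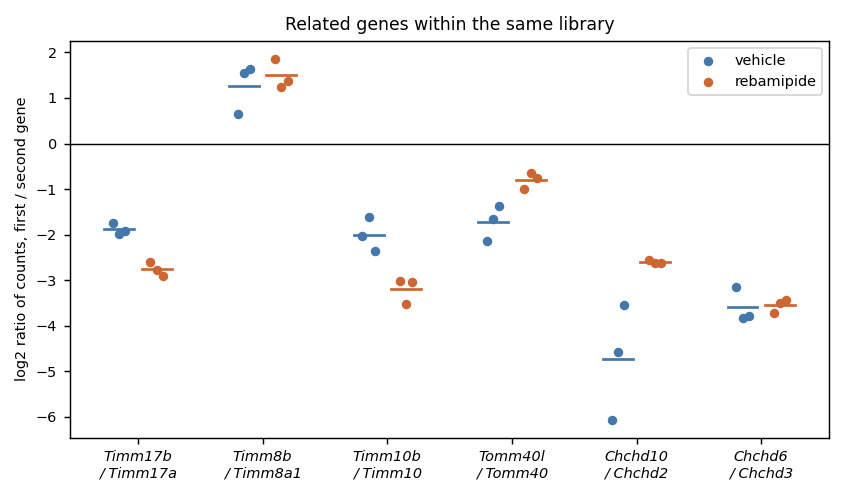
Log2 ratio of the counts of 6 pairs of related genes, with a point for each library (3 per group) and a line at the group mean. The rebamipide points lie below the vehicle points for Timm17b/Timm17a and Timm10b/Timm10, above them for Tomm40l/Tomm40 and Chchd10/Chchd2, and overlap them for the other pairs.

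The genes that work with the translocases were counted from a list of 28, of which 25 (89.3%) were higher and 0 lower, and the median of their log2 fold changes was 1.66. Of all genes tested 14.1% were higher. With the Timm, Tomm and Chchd genes left out, 66.9% of genes annotated to the mitochondrial inner membrane were higher (median 1.41). For the mitochondrion as a whole the share was 43.7% (median 0.83). The shorter lists below stand beside the same shares, and whether any list differed from other mitochondrial genes was not tested. With the second vehicle or the second rebamipide library left out, edgeR called 0 of the 28 (25 at an unadjusted p under 0.05 in each case), DESeq2 27 and 24 and limma-voom 7 and 7, where edgeR called 0 and 1 genes of the whole table. Of 6 partners of the import motor 5 were higher. Dnajc15, a J-protein of the motor, was at 14.3, 20.3 and 23.8 CPM with vehicle and 115, 205 and 224 CPM with rebamipide (log2 fold change 3.22, SE 0.35, adjusted p = 0.00939), and Grpel1, the nucleotide exchange factor of matrix Hsp70, rose by 2.03 on the log2 scale (SE 0.25, adjusted p = 0.00982). Grpel2, a paralogue of Grpel1, was the only gene of the list with a negative log2 fold change, at 51.6, 39.5 and 35.4 CPM with vehicle and 26.7, 42.5 and 40.8 CPM with rebamipide (log2 fold change -0.20, SE 0.26, adjusted p = 0.583), and it was lower with total counts alone (-0.85, adjusted p = 0.0372).

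All 8 genes of presequence processing and folding in the matrix were higher. The largest fold was that of Immp2l, a subunit of the inner membrane peptidase, which was at 1.54, 3.29 and 3.81 CPM with vehicle and 36.7, 65.7 and 72.1 CPM with rebamipide (log2 fold change 4.34, SE 0.48, adjusted p = 0.00939). Pmpcb, the catalytic subunit of the matrix processing peptidase, rose by 2.22 (SE 0.26, adjusted p = 0.00939). All 5 genes listed as other subunits and partners of the translocases were higher. Among them were Aifm1, which anchors Chchd4 (log2 fold change 2.43, SE 0.28, adjusted p = 0.00939), and Oxa1l, an insertase of the inner membrane (1.67, SE 0.22, adjusted p = 0.00993).

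Of the sorting and assembly machinery, which inserts barrel proteins such as Tomm40 into the outer membrane, 2 of 4 genes were higher. Its core subunit Samm50 was at 74.2, 88.9 and 90.6 CPM with vehicle and 254, 314 and 362 CPM with rebamipide (log2 fold change 1.87, SE 0.22, adjusted p = 0.00953), and Mtx2, a partner of Samm50, rose by 1.59 (SE 0.29, adjusted p = 0.0182). Mtx3 was not called and overlapped between the groups (log2 fold change 1.66, SE 0.58, adjusted p = 0.0854). Mtx1, also not called, had a log2 fold change of 0.63 (SE 0.20, adjusted p = 0.0682), which became 0.01 with total counts alone. All 5 other MICOS genes were higher, with Immt, the organiser of the complex, at 142, 147 and 153 CPM with vehicle and 473, 778 and 811 CPM with rebamipide (log2 fold change 2.22, SE 0.28, adjusted p = 0.00993). Micos10 rose by 1.71 (SE 0.23, adjusted p = 0.00994).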

How the data were processed

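RNA-seq was performed on dorsal skin of 3 vehicle-treated and 3 rebamipide-treated mice, from poly-A RNA. The authors deposited a table of raw read counts and of FPKM for each gene, with symbols, positions and annotations. The submitters' processing notes name fastp 0.22.0, HISAT2 2.1.0, HTSeq 0.9.1 and GRCm39, and the strand setting and annotation release are not given in the sources used here. The deposited counts are raw whole numbers. The deposited FPKM can be rebuilt from those counts, the gene length and the library total (100% of values above 0 within 0.1%).

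The members and lists were chosen with earlier results of these data known. All members are named, and of each list of other import genes the 2 with the smallest p-values and any called lower. Grpel2, Mtx1, Mtx3, Vdac1 and Vdac3 were named after their values were seen. All 12 value columns were matched to samples by name and 0 rows lacked a gene. The fit across all genes was made with edgeR 4.0.16 in R 4.3.3 (filterByExpr, TMM, quasi-likelihood test, Benjamini-Hochberg adjustment over 14875 genes). Pair ratios used counts plus 0.5 and a two-sided exact permutation test, unadjusted over the 6 pairs. Alternatives were DESeq2 1.42.0, limma 3.58.1 (voom, and log2(FPKM + 1) on genes above 1 FPKM), other normalizations and filters, a replicate block and each library left out. The tests were also run on simulated counts. Those had the same spread for every gene and equal numbers of genes raised and lowered, unlike these data. They do not show how the tests perform on libraries that differ in composition. Replicates differed by more than sampling noise (83.1 to 742.3 as chi-square divided by its degrees of freedom). Each library is a separate mouse. Intervals and limits for 0 counts (3 counts) cover counting error only. Promoters were taken from RefSeq (GRCm38.p6) and positions of the deposited table were not combined with them, since of 21141 genes with a symbol in both annotations only 578 begin within 1000 bases of the same GRCm38 coordinate. The study's other experiments were not analysed here.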

Additional observations from a re-analysis of the deposited data

How the results depend on the processing

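With every library kept, the number of members called higher was 14 to 22 against 21 as reported (DESeq2 22, limma on log2(FPKM + 1) 15, total counts alone 14), and 0 were called lower in any analysis. With each library left out in turn it was 0 to 25 with edgeR (12 without the third rebamipide library), 19 to 28 with DESeq2 and 0 to 26 with limma-voom (12 without the third rebamipide library). The lowest and highest counts under these omissions were 0 and 8 for the inner membrane translocase, 0 and 7 for the outer, 0 and 6 for the small Tims, 0 and 7 for the Chchd genes and 0 and 27 for the other import genes (16 with limma-voom without the third rebamipide library), where every 0 came from edgeR or limma-voom without the second vehicle or the second rebamipide library. The fits of DESeq2 and limma-voom without a library were added after the data were seen, and a group left with 2 libraries was fitted with the spread pooled over both groups. Total counts alone gave 4 inner and 2 outer membrane translocase genes, limma on log2(FPKM + 1) gave 2 outer genes, and the thresholds of the study (unadjusted p under 0.05, log2 fold change over 1) gave 2 outer genes. With the replicate number as a block, 14 members were higher, with 4 inner and 2 outer membrane genes. The deviations of same-numbered libraries from their group means had correlations of -0.085, -0.031 and -0.05. Those of differently numbered libraries ran from -0.333 to 0.349. No pairing by number was seen, but these correlations cannot exclude one. The inner minus outer difference was 0.37 with means, and 0.40 to 0.74 with a library left out, the lowest values being DESeq2's without the first vehicle (0.40) or the second rebamipide library (0.48).

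Uncalled members turned sign as follows. With total counts alone the log2 fold changes were -0.37 for Chchd2l, -0.33 for Chchd5, -0.05 for Timm17b, -0.21 for Tomm20, -0.56 for Tomm34 and -0.20 for Tomm70a. With limma on log2(FPKM + 1) they were -0.28 for Chchd5, -0.04 for Timm17b, -0.19 for Tomm20, -0.50 for Tomm34 and -0.22 for Tomm70a. The FPKM are scaled by the library total, so this setting shares the scaling of total counts alone. Tomm34 was also at -0.02 with upper quartile factors and with at least 10 counts in every sample, and from -0.03 to 0.12 with edgeR with each library left out, being negative without the second vehicle (-0.01) or the first rebamipide library (-0.03; -0.00 and -0.02 with DESeq2). With a library left out, the pair difference of Chchd6/Chchd3 lay between -0.08 and 0.26 and that of Timm8b/Timm8a1 between -0.1 and 0.4. The cause was not tested. No called member changed direction in any of the 28 alternatives. Tomm6, Timm8a2 and Tomm20l had at most 4 counts in any library, so no difference was detectable for them.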
